A study of Mus musculus with 12 samples.

Results

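The 6 cytosolic sulphotransferase genes described here in mouse liver cells are Sult2a8, Sult1a1, Sult1b1, Sult1c2, Sult1d1 and Sult5a1, that is 6 of the 19057 genes with a probe on the array. Every probe annotated to these names was taken, 9 of 45281 probes in all. The set was chosen by the tumour and normal signals of these arrays, since Sult2a8 has the lowest difference between them of all genes tested. The members' tumour values are therefore given as a description, without a test.

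RNA was measured on 12 Illumina bead arrays, 3 in each of 4 groups, from freshly isolated liver cells of age-matched male mice of strain B6. The groups were hepatocellular carcinoma (HCC), labelled fully malignant, premalignant hepatocytes labelled aggregate, premalignant hepatocytes labelled non-aggregate, and normal hepatocytes. HCC was induced with DEN (diethylnitrosamine), a liver carcinogen given by injection; the design text does not state the injection separately for the premalignant cells. Age, dose and interval after injection, and whether replicates came from separate animals, are not given in the sources used here, so p-values measure the spread between these arrays, which may be technical. By the array barcodes, HCC and normal hepatocytes shared 1 chip and the premalignant cells another, so between these pairs of groups the chip and the group cannot be told apart. The arrays had mean signals between 314.4 and 403.3, with 15354 to 19482 probes detected, and their number limits the precision.

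Cytosolic sulphotransferases transfer a sulphonate group from the donor PAPS (3'-phosphoadenosine 5'-phosphosulphate) to hydroxyl or amine groups of small molecules. In liver the SULT2A enzymes act on steroids and bile acids, which makes these more water-soluble, and SULT1 enzymes act on phenols, catecholamines and thyroid hormones. The same reaction can also turn some hydroxylated carcinogens into reactive esters. PAPS is made from ATP and sulphate, and the by-product PAP, which inhibits the enzymes, is removed by phosphatases.

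The regions just before the annotated starts are shown for the 3 members that stood lower in HCC and for Sult1a1, which did not. All 6 members were found by symbol in RefSeq's promoter table (build GRCm38.p6), with 8 starts between them, and all lie on the minus strand. Each line gives the 250 bases before a start, 5' to 3' on the gene's strand. Capitals mark matches on either strand to 5 short motifs: AGGTCA (a nuclear receptor half-site), GTTAAT (an HNF1 half-site), TTCNNNGAA (STAT), TTGCNNAA (C/EBP) and TATAAA (the TATA box).

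Sult2a8 start 1 (chr7:14446588-14446837, minus strand): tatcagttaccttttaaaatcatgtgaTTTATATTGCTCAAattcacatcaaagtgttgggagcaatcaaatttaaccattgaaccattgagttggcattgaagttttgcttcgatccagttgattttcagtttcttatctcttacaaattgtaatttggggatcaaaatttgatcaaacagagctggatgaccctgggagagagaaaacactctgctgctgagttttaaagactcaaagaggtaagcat
Sult2a8 start 2 (chr7:14438552-14438801, minus strand): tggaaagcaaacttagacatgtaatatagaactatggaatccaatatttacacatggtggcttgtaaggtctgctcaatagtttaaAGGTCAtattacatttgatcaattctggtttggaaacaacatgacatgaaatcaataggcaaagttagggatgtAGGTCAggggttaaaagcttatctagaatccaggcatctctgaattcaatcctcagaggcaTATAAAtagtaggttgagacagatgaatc
Sult1d1 start 1 (chr5:87569007-87569256, minus strand): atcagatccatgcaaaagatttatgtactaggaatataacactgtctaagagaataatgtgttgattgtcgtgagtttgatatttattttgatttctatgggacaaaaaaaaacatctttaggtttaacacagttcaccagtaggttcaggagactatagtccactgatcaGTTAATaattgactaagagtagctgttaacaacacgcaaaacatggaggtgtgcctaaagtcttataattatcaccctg
Sult5a1 start 1 (chr8:123158281-123158530, minus strand): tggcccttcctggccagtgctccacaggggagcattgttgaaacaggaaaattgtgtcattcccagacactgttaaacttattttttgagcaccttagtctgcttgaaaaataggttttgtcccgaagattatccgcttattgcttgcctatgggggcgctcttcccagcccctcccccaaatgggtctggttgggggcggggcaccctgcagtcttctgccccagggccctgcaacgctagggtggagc
Sult1a1 start 1 (chr7:126676419-126676668, minus strand): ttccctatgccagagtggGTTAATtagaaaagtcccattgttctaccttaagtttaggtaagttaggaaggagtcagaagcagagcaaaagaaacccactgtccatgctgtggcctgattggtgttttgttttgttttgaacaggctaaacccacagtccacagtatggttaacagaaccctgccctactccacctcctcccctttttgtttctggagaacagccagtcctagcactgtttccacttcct

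The first Sult2a8 start held a C/EBP match beginning 217 bases before it, directly next to a TATA match on the other strand beginning 223 bases before it. The second Sult2a8 start held AGGTCA at 164 and again at 90 bases before it, and TATAAA 29 bases before it. Sult1d1 held 1 GTTAAT match 79 bases before its start and Sult1a1 held 1 match 232 bases before its start. Sult5a1 held none of the 5 motifs in this window, and neither did Sult1c2. Sult1b1 held AGGTCA on the other strand 123 bases before its first start, and none of the motifs before its second. Among 32851 such windows of all genes, AGGTCA was in 14%, TATAAA in 12.4%, TTGCNNAA in 9.56%, TTCNNNGAA in 7.02% and GTTAAT in 6.43%. These matches describe the letters only. Sult2a8 lies on chromosome 7 between Sult2a6 and Sult2a7, Sult1d1 on chromosome 5 between Sult1b1 and Sult1e1, and Sult1c2 on chromosome 17 beside Sult1c1.

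Sult2a8, a mouse liver enzyme that sulphonates bile acids, was bright in 3 groups and dim in HCC. Its deposited signal was 464, 251 and 179 on the HCC arrays, 6272, 5153 and 4605 on the aggregate arrays, 7422, 7003 and 6276 on the non-aggregate arrays, and 6623, 5250 and 8831 on the normal arrays. Every HCC array thus lay far below every other array, and the probe was still detected on all 3 of them. On the normalized log2 scale the means were 7.65 ± 0.84 in HCC, 12.42 ± 0.21 in aggregates, 12.69 ± 0.10 in non-aggregates and 12.70 ± 0.17 in normal hepatocytes (SD, n = 3 each). The HCC minus normal difference was -5.05, a level 33.2-fold lower, and 0 of 10641 genes tested had a lower value. In bulk samples such as these, fewer cells of a type and less RNA per cell cannot be told apart. The order of the means was normal, non-aggregate, aggregate and HCC, and within it only the step to HCC separated groups whose arrays did not overlap.

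**Figure D1:**
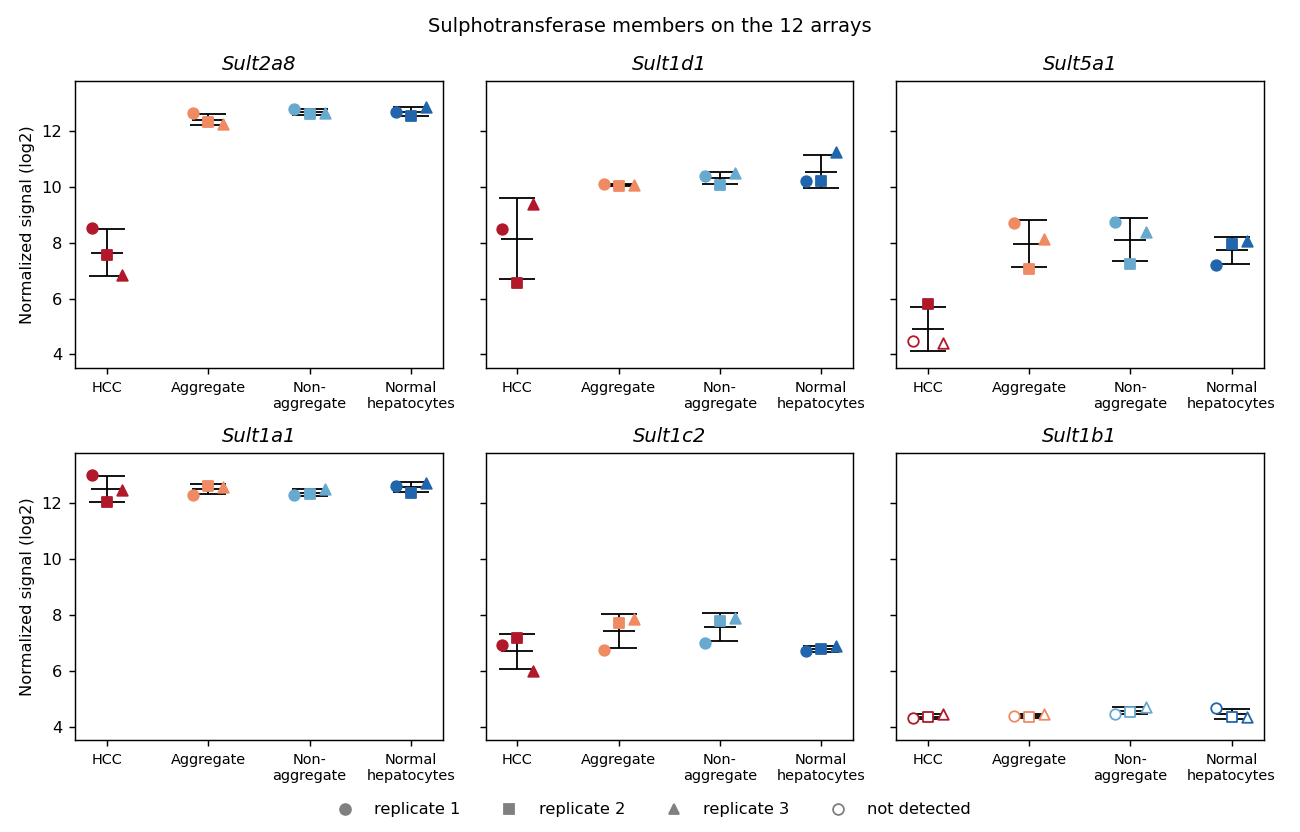
Normalized signal (log2) of the brightest probe of each member on the 12 arrays; each symbol is an array, its shape the replicate number, open where the probe was not detected, and bars give mean ± SD (n = 3). Sult2a8, Sult1d1 and Sult5a1 stand lower in HCC than in the other 3 groups, Sult1a1 and Sult1c2 overlap between HCC and normal hepatocytes, and Sult1b1 is at background throughout.

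Sult1d1 and Sult5a1 also had every HCC array below every normal array. In all, 3 of the 5 members that passed the detection filter did so, against 28.5% of all genes tested, but this is the comparison on which the set was chosen. For reference, 49% of genes were called in HCC against normal hepatocytes at an adjusted p below 0.05.

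Sult1d1, which acts on dopamine and other catecholamines, had a signal of 454, 149 and 718 in HCC, 1087, 1090 and 1019 in aggregates, 1353, 1233 and 1478 in non-aggregates, and 1132, 1040 and 2983 in normal hepatocytes. HCC replicate 2 was the lowest array and normal replicate 3 the highest, while the aggregates were within a narrow band. The log2 means were 8.15 ± 1.45 in HCC and 10.56 ± 0.60 in normal hepatocytes, a difference of -2.41 (5.31-fold lower). Without HCC replicate 2 the difference was -1.61, without HCC replicate 3 it was -3.03, and of all genes tested 98 (0.921%) had a lower value. A second Sult1d1 probe stayed near background, between 56.8 and 77.7 on the 12 arrays, with HCC and normal arrays overlapping (log2 difference -0.52). Averaging both probes gave a difference of -1.47.

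Sult5a1, a family member whose substrates are little known, gave 60.2, 106 and 58 in HCC, 445, 166 and 287 in aggregates, 453, 193 and 360 in non-aggregates, and 157, 228 and 333 in normal hepatocytes. In HCC only replicate 2 was detected, so 2 of the 3 HCC values carry no measured level. The log2 means were 4.91 ± 0.78 in HCC and 7.73 ± 0.47 in normal hepatocytes, a difference of -2.82, and 50 genes (0.47%) had a lower value. With HCC arrays set no lower than the dimmest detected probe of each, HCC was at least 6.6-fold lower. The second Sult5a1 probe likewise had every HCC array below all others, with only 1 HCC array detected, and was at least 3.54-fold lower in HCC by the same bound. Without background correction the difference of the first probe was -1.90. In both premalignant groups replicate 1 was the brightest array and replicate 2 the dimmest.

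Sult1a1, the main phenol sulphotransferase, was bright in all 4 groups. Its signal was 8596, 4343 and 4992 in HCC, 4937, 6295 and 5617 in aggregates, 5009, 5663 and 5744 in non-aggregates, and 6286, 4699 and 8113 in normal hepatocytes. The arrays of each group overlapped those of its neighbours in the order normal, HCC, aggregate and non-aggregate. The log2 means were 12.51 ± 0.47 in HCC and 12.58 ± 0.18 in normal hepatocytes, a difference of -0.07 that became 0.05 with cyclic loess normalization.

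Sult1c2, a SULT1C enzyme acting on phenols, was dim but detected on every array. It gave 186, 200 and 122 in HCC, 147, 240 and 242 in aggregates, 160, 270 and 263 in non-aggregates, and 120, 122 and 164 in normal hepatocytes. HCC and normal arrays overlapped, with a log2 difference of -0.08 that turned to 0.38 with median scaling, 0.13 with cyclic loess and 0.15 in the submitters' normalized values. The non-aggregate arrays were all above the normal arrays on the log2 scale, by 0.78 on average, and this comparison runs across chips. Sult1b1, which acts on thyroid hormones, was not detected on any of the 12 arrays with either of its probes, whose signals ran from 44.5 to 63.3.

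Whether the members differ between premalignant aggregates and non-aggregates was tested, as these 6 arrays share a chip and are not those of the comparison through which Sult2a8 was picked. None of the 5 measured members was called by limma over all genes (0 of 5 adjusted, and 0 of 5 at an unadjusted p below 0.05), where 0.761% of all genes were called, 0.761% higher and 0% lower. At an unadjusted limma p below 0.05, 609 of 10641 genes were higher and 155 lower. Sult2a8 was 12.42 in aggregates and 12.69 in non-aggregates, a log2 difference of -0.28 (SE 0.31, 95% interval -0.96 to 0.41, limma adjusted p = 0.99999). That interval covers an aggregate level between 0.514 and 1.33 times the non-aggregate level. The fit takes 1 spread per gene from all 12 arrays, so the tumour arrays also set this interval. The log2 SD of Sult2a8 was 0.84 in HCC, against 0.21 in aggregates and 0.10 in non-aggregates. In the 3 same-numbered pairs of arrays the difference was -0.15, -0.31 and -0.36, and the arrays of the groups overlapped.

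The interval was narrower for Sult1a1 and wider for the other 3 members. The aggregate minus non-aggregate log2 difference was -0.25 for Sult1d1 (95% interval -1.42 to 0.92), -0.15 for Sult5a1 (-1.24 to 0.93), -0.13 for Sult1c2 (-0.89 to 0.63) and 0.13 for Sult1a1 (-0.33 to 0.60). Aggregates were lower in 3 of 3 pairs for Sult2a8, Sult1d1, Sult5a1 and Sult1c2, and higher in 3 of 3 pairs for Sult1a1. The second Sult5a1 probe was also lower in 3 pairs, while the second Sult1d1 probe was lower in 2 and higher in 1. The share of all genes with 3 pairs in the same direction was not counted, so these counts are not a result of their own. The arrays of the groups overlapped for all 5 members, while 17.6% of all genes had groups that did not overlap. With the replicate number as a block none of the 5 was called either, with limma adjusted p = 0.99996 for each. The spread in that fit also comes from the HCC and normal arrays, so it does not test the pair differences by themselves. Its SE was 0.33 for Sult2a8 and 0.58 for Sult1d1, against 0.31 and 0.54 without the block. For Sult1a1 it was also larger (0.22 against 0.21). It was smaller for Sult1c2 (0.26 against 0.35) and Sult5a1 (0.35 against 0.50). The pair differences alone were not tested.

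**Figure D2:**
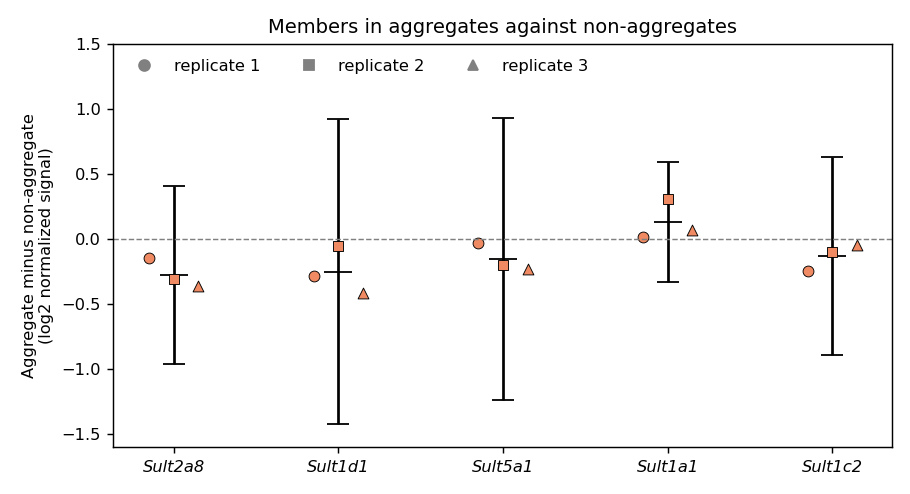
Aggregate minus non-aggregate difference in normalized signal (log2) for the 5 measured members; symbols are the 3 same-numbered pairs of arrays and the bars the limma estimate with its 95% interval. Every interval crosses 0, and by the brightest probe 3 of 3 pairs are below 0 for each member but Sult1a1.

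Set across chips, and so without a test, the premalignant levels of the 3 members low in HCC were nearer to the normal level than to that of HCC. Sult2a8 differed from normal hepatocytes by -0.29 in aggregates and -0.01 in non-aggregates, and Sult1d1 by -0.48 and -0.23 in that order. On the log2 scale every Sult1d1 aggregate array lay below every normal array by the brighter probe, but not by the second. Sult5a1 differed by 0.24 in aggregates and 0.39 in non-aggregates. HCC stood -4.77 from aggregates for Sult2a8, -1.92 for Sult1d1 and -3.06 for Sult5a1. These differences share the HCC or normal arrays with the comparison above.

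Across the 12 arrays Sult2a8 had a Pearson r of 0.90 with Sult5a1, 0.80 with Sult1d1, 0.44 with Sult1c2 and 0.02 with Sult1a1. After each group's mean was taken off, these were 0.13, -0.14, 0.23 and 0.46, so the first values rest largely on differences between the group means. The 5 genes most like Sult2a8 over the 12 arrays, by Pearson r, were Pecr (0.997), Nudt7 (0.993), Gpx1 (0.993), Adh4 (0.992) and Macrod1 (0.991). Pecr, a peroxisomal enoyl-CoA reductase, had an HCC minus normal difference of -2.18, Adh4, an alcohol dehydrogenase, -2.36, and Macrod1 -2.90. The genes most like Sult5a1 were C8b (0.978), a complement component, and Cyp7b1 (0.973), an oxysterol hydroxylase. Those most like Sult1d1 were Zmym5 (0.992) and Nemf (0.985), those most like Sult1c2 Entpd5 (0.942) and Rnf14 (0.933), and those most like Sult1a1 Clmn (0.850) and Nsa2 (0.842). All these genes were picked for the highest r over 12 arrays, with group means left in, so the values are a description only.

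Of 16 further family genes 10 had a probe, and 3 passed the detection filter, all 3 called higher in HCC against normal hepatocytes, where 23% of all genes were called higher and 26% lower. Since they were undetected in normal hepatocytes, they could pass the filter only through the other groups, so neither their common direction nor this count is a result of its own. Without the filter, over 19057 genes, 2 of these 3 were called. The other 7 genes on the array, among them Sult1e1, the oestrogen sulphotransferase, and Sult2a1, gave signals from 39.2 to 70.1. Of these Sult1e1 was detected on 1 aggregate and 1 normal array, and the rest on none.

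Sult2a2, an enzyme for hydroxysteroids and bile acids, had a signal of 172, 142 and 342 in HCC, 83.6, 109 and 101 in aggregates, 63.6, 66.2 and 49.8 in non-aggregates, and 54.8, 51.7 and 49.8 in normal hepatocytes. It was detected on every HCC and aggregate array, on 1 non-aggregate array and on no normal array. It was at least 4.71-fold higher in HCC than in normal hepatocytes (limma adjusted p = 5.70e-05). Between aggregates and non-aggregates its log2 difference was 1.34 (SE 0.36), with no overlap between the groups, and missed the threshold (limma adjusted p = 0.117). It passed with only the arrays compared (adjusted p = 0.0461), with array weights (0.00763) and without HCC replicate 3 (0.0221), and not in the other 21 alternatives, where the paired fit with the replicate block gave 0.154. Several Sult2a genes are close copies, so this probe may read more than 1 of them. Such cross-reading could not be checked for this probe or for that of Sult2a8.

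Sult4a1, known mainly from brain and with no well established substrate, varied widely among tumours. Its signal was 821, 75.2 and 172 in HCC, 53.3, 91.6 and 84.4 in aggregates, 52.9, 64.4 and 50.6 in non-aggregates, and 55.1, 58.1 and 58.1 in normal hepatocytes. It was at least 4.55-fold higher in HCC than in normal hepatocytes, where no array detected it. The call was lost without the detection filter (limma adjusted p = 0.0500018) and with only the groups compared (0.0512), against 0.0167 among the genes that passed the filter. The fitted log2 difference of 2.67 became 1.49 without HCC replicate 1 (limma adjusted p = 0.0358). A second Sult4a1 probe was detected on no array.

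Sult2b1, which acts on cholesterol and pregnenolone, was dim, with 123, 85.9 and 98.4 in HCC, 52.8, 46.5 and 47.5 in aggregates, 55.8, 53.9 and 49.6 in non-aggregates, and 56.1, 60.3 and 60.8 in normal hepatocytes. This probe was detected on the 3 HCC arrays alone and passed the filter only through them. By it Sult2b1 was at least 1.68-fold higher in HCC than in normal hepatocytes, and without the filter the limma adjusted p was 5.46e-04. Its other 2 probes gave HCC minus normal differences of 0.40 and -0.03, and 1 of these was detected on 1 normal array.

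**Figure D3:**
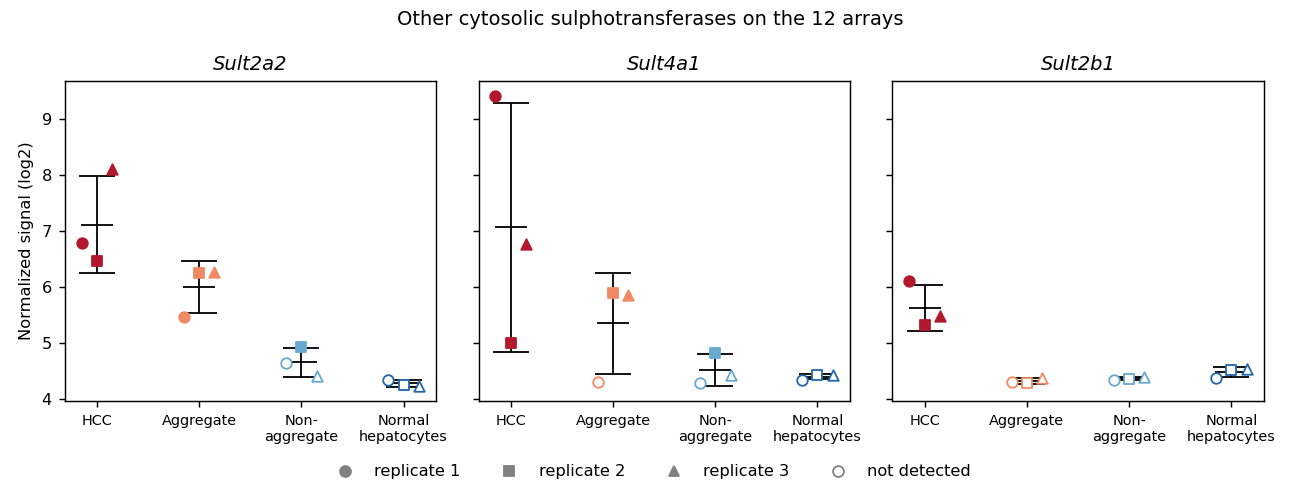
Normalized signal (log2) of Sult2a2, Sult4a1 and Sult2b1 on the 12 arrays; each symbol is an array, open where the probe was not detected, and bars give mean ± SD (n = 3). All HCC arrays are detected for the 3 genes and no normal array is.

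Genes that make, move and clear the donor PAPS changed in both directions in HCC: of 6 genes measured of 6 listed, 3 rose and 2 fell against normal hepatocytes. Over all genes 23% were called higher and 26% lower. Papss1, a synthase of PAPS, gave 297, 279 and 303 in HCC and 129, 166 and 185 in normal hepatocytes, a log2 rise of 0.70 (SE 0.17, limma adjusted p = 0.00492). Its second, dimmer probe differed by 0.01, and with the mean of both probes the call was lost (adjusted p = 0.102). Papss2, the synthase better known in liver, gave 1952, 1154 and 1892 in HCC and 2077, 2388 and 2866 in normal hepatocytes, so that every HCC array was lower. Its log2 change of -0.61 (SE 0.23) passed narrowly (limma adjusted p = 0.0469), and in 12 of 24 alternatives it did not, among them leaving out HCC replicate 2, Aggregate replicate 1 or any non-aggregate or normal array. Another Papss2 probe, detected on every array, differed by -0.85, and a further probe was detected on none.

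The Golgi transporters of PAPS, which supply another set of sulphotransferases, were both higher in HCC. Slc35b2 gave 1799, 2282 and 1710 in HCC and 795, 873 and 794 in normal hepatocytes, a rise of 1.17 on the log2 scale (SE 0.17, limma adjusted p = 1.49e-04). Slc35b3 rose by 0.71 (SE 0.17, limma adjusted p = 0.00399), and its further probes differed by 0.70 and 0.265. Bpnt1, the cytosolic phosphatase that removes PAP, gave 346, 268 and 199 in HCC and 537, 554 and 526 in normal hepatocytes, without overlap. It fell by 1.49 on the log2 scale (SE 0.22, limma adjusted p = 1.81e-04), and its other 3 probes differed by -1.13, -1.18 and -0.37. Bpnt2, the Golgi phosphatase for PAP, differed by 0.02 (95% interval -0.54 to 0.58) and was not called.

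Sulphate supply genes fell in 5 and rose in 0 of 8 measured of 12 listed in HCC, with a median log2 difference of -0.775 against -0.0785 over all genes. Over all genes 26% were called lower. Suox, sulphite oxidase, which makes sulphate from sulphite, averaged 6.53 ± 0.43 in HCC and 9.11 ± 0.19 in normal hepatocytes (log2 signal, SD, n = 3 each), a change of -2.58 (limma adjusted p = 7.78e-06). Mpst, mercaptopyruvate sulphurtransferase, changed by -1.31 and Ethe1, a mitochondrial persulphide dioxygenase, by -1.20. The falls of these 3 genes held in all 24 alternatives.

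Golgi sulphotransferases, which act on glycans and proteins, rose in 8 and fell in 0 of 16 measured of 36 listed, with a median difference of 0.47. For this list and the sulphatases below, the share of all genes called higher was 23%. Chst2, a carbohydrate sulphotransferase acting on N-acetylglucosamine, averaged 7.18 ± 0.40 in HCC and 4.83 ± 0.40 in normal hepatocytes, where 1 of 3 arrays detected it, a rise of 2.35 (SE 0.23). Chst7 rose by 1.84 and Tpst2, a tyrosylprotein sulphotransferase, by 1.54. Chst14, also counted among the 8, passed the detection filter only through the HCC arrays. Sulphatases and their activators rose in 5 and fell in 0 of 10 measured of 15 listed, with a median of 0.557. The count of 5 became 3 without normal replicate 3, with array weights and with only the groups compared. Among them the lysosomal enzymes Arsg, Galns and Arsb rose by 1.84, 1.33 and 0.83.

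Of 11 measured genes, of 15 listed, for regulators known to act on liver sulphotransferase genes, 1 rose and 6 fell, with a median of -0.614. Over all genes 23% were called higher and 26% lower. Nfe2l2, which encodes NRF2, averaged 7.86 ± 0.16 in HCC and 6.43 ± 0.36 in normal hepatocytes, a rise of 1.42. The nuclear receptor genes Nr1i2 (PXR) and Nr1h4 (FXR) changed by -1.47 and -1.31, and Cebpa (C/EBP alpha) by -1.07, a call that was lost with median scaling (adjusted p = 0.0997) and without HCC replicate 3 or normal replicate 3. Across all lists 20 genes rose and 13 fell of 54 measured of 100 listed, so that 61.1% were called against 49% of all genes. The 20 include Sult2a2, Sult4a1, Sult2b1 and Chst14, which could pass the filter only through groups other than normal hepatocytes. The step from 49% to 61.1% is therefore not a result of its own. The median of the 54 was 0.156. Scaling moves this balance, since with median scaling the median of all genes was 0.178 and 70.8% of called genes were higher, against 47% here. Without the detection filter 17 rose and 14 fell of 87 listed genes, while 2385 rose and 2690 fell of all 19057 genes.

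**Figure D4:**
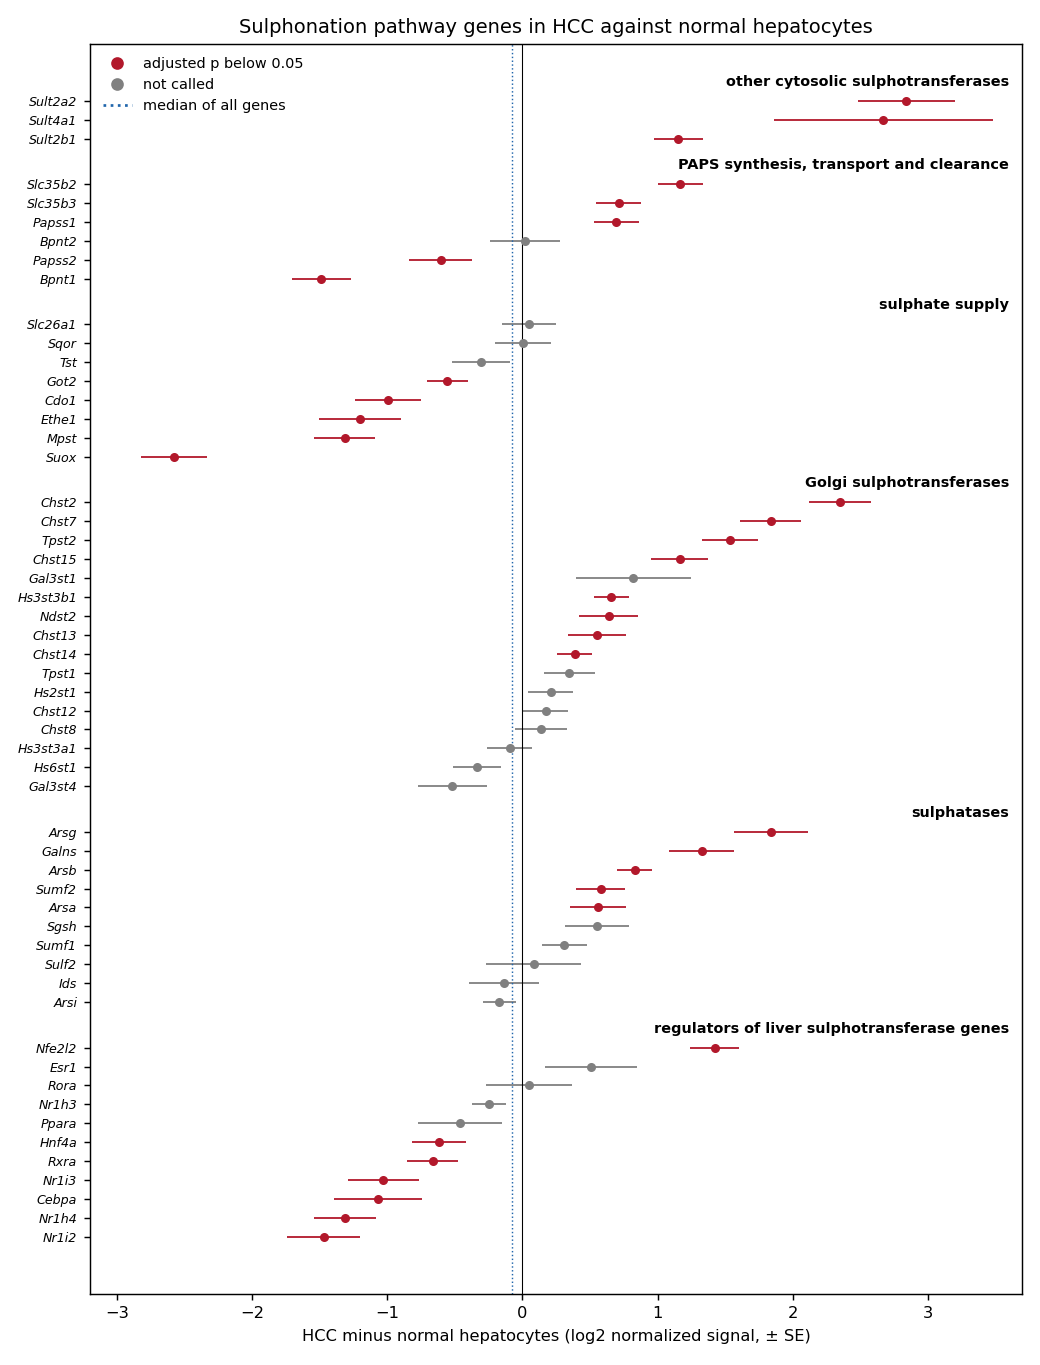
HCC minus normal difference in normalized signal (log2) of 54 measured genes of the sulphonation pathway outside the 6 members, by list; points are limma estimates, lines ± SE, red points were called at an adjusted p below 0.05, and the dotted line is the median of all genes. The sulphate supply genes called all lie below 0, and the Golgi sulphotransferases and sulphatases called all lie above it.

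None of these 54 genes was called between aggregates and non-aggregates by limma (0 higher and 0 lower, with 5 higher and 1 lower at an unadjusted p below 0.05). Over all 10641 genes, 609 were higher and 155 lower at that unadjusted threshold. Their median was -0.0221, against -0.0332 over all genes. The arrays of the groups did not overlap for 10 of the 54 (18.5%), close to the 17.6% of all genes. Chst15, Chst7 and Chst2 differed by 0.98, 0.89 and 0.75 (limma adjusted p = 0.0572, 0.0973 and 0.209), and Sult2a2 by 1.34; these were picked after their values were seen. The fit with the replicate block, whose spread also comes from the HCC and normal arrays, called 0 of the 54 as well.

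Beside all of these results, non-hepatocyte markers were raised in HCC. Hepatocyte markers, all 11 detected on every array, had a summed level of 275900 to 282300 in HCC, 278300 to 297700 in aggregates, 269800 to 284600 in non-aggregates and 272400 to 293900 in normal hepatocytes, with 1 higher (Alb, 1.69) and 2 lower (Ass1, -1.50, and Cps1, -0.94) in HCC. Quantile normalization gives every array the same set of values, which limits how far a sum over such bright genes can move. These sums therefore do not measure the share of hepatocytes. Endothelial markers rose in 14 of 15 measured, with a summed level of 9899 to 14670 in HCC and 1671 to 4525 in normal hepatocytes; Emcn rose by 3.59 and Robo4 by 3.36. Macrophage markers rose in 9 of 13, summing to 9106 to 12450 in HCC and 1226 to 1554 in normal hepatocytes, led by Cd14 (4.01) and Mpeg1 (3.56). Markers of stellate cells and fibroblasts rose in 10 of 12, summing to 8946 to 19090 in HCC and 777.6 to 1726 in normal hepatocytes, led by Acta2 (5.14) and Reln (4.54). Of the rarer types, Ccl5 and Cd3g were the T and NK cell markers called higher of 3 measured, S100a8 the only neutrophil marker measured and Sox9 the only bile duct marker measured, both higher, and of 2 red cell markers Hba-a1 was higher and Alas2 lower. No B cell marker passed the detection filter. Among the markers called higher, Tie1, Col1a1, Col1a2, Lrat, Pdgfrb, Ccl5 and Cd3g were undetected in normal hepatocytes. They could pass the filter only through the other groups, so their part in these counts is not a result of its own. Of all genes 23% were called higher in HCC.

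In aggregates against non-aggregates, endothelial, macrophage and stellate cell markers were called higher in 6, 2 and 3 genes, and in 1, 7 and 2 genes in the paired fit with the replicate block. Without the block 0.761% of all genes were called higher. Flt4 and Marco, both called in that fit, were undetected in non-aggregates and could pass the filter only through other groups. Ramp2 (1.57) and Lyve1 (1.54) led the first list, Adgre1 (2.23) and Marco (at least 1.46-fold, undetected in non-aggregates) were the macrophage markers, and Reln (2.52) and Dcn (2.17) led the third. The summed levels were 5629 to 8295 in aggregates and 2450 to 3171 in non-aggregates for endothelial markers, 2748 to 7996 in aggregates and 974.5 to 3138 in non-aggregates for macrophage markers, and 3246 to 4686 in aggregates and 717.2 to 1268 in non-aggregates for stellate cell markers. The part of these other cells in the members' values was not tested.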

How the data were processed

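Total RNA, purified with Trizol and RNeasy columns and labelled with biotin per the labels' protocols, was hybridised to 12 Illumina arrays. The deposited table holds a linear signal intensity per probe and array, not background subtracted, and a detection p-value, both named in its header. Normalized intensity was deposited in a further table by the authors, with no method stated in the labels or headers. All data columns were mapped, with 0 left over.

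Signals were background corrected by normexp from the detection p-values (offset 16), quantile normalized and taken to log2 (neqc, limma 3.58.1, R 4.3.3). The authors deposited no log2 values. Of 45281 probes 34885 had 1 annotated gene, 18 several and the rest none. Probes detected at p below 0.05 on at least 3 arrays were kept (19670), and a gene was its probe with the highest mean, which left 10641 genes. Of the members' 9 probes 7 passed. Where no array of the lower group detected a probe, the fold is a bound, against the lowest signal among detected probes of each array or the probe's own, whichever is higher. A summed level adds the linear normalized values of a list's measured markers.

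Group means over all 12 arrays were fitted with limma (lmFit, eBayes, 2-sided), adjusted by Benjamini-Hochberg over all genes, with calls at adjusted p below 0.05. The fit was tested on simulated data. The members, lists and rules were chosen with earlier results of these data known. Named genes were all members, all measured genes of the cytosolic sulphotransferase and PAPS lists, up to 3 called genes per direction with the largest change of the other pathway lists and 2 of marker lists, and the genes most like each member, with clone and predicted names passed over. Genes named among those not called in aggregates were picked after their values were seen.

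Within a replicate number, aggregate and non-aggregate deviations from the group means had correlations of 0.706, 0.541 and 0.638, so the numbers pair these arrays. Paired arrays are also neighbours on the chip, and the labels name no shared source. The fit with this replicate block called 90 genes higher and 0 lower, against 81 and 0. It takes its spread from the HCC and normal arrays too, and so is not a test of the pair differences alone. For HCC and normal arrays these correlations were -0.0107, 0.123 and 0.101. Alternatives were other background, normalization, filter and probe rules, the submitters' values, only the groups compared, array weights, the replicate block, chips normalized apart and each array left out. Figures were drawn with matplotlib 3.10.9 in Python 3.11.15.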

Additional observations from a re-analysis of the deposited data

How the results depend on the processing

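The HCC minus normal difference of Sult2a8 ran from -5.05 to -4.66 over the alternatives other than leaving arrays out, and from -5.49 to -4.65 with single arrays left out. The filter and probe rules (Sult2a8 has 1 probe), the replicate block and fitting only the groups compared could not move this difference. Pathway genes called in HCC ran from 15 to 25 higher (17 to 21 with single arrays left out) and from 10 to 14 lower (11 to 13). Over the 24 alternatives, sulphate supply genes called in HCC were 4 or 5 lower and 0 higher, Golgi sulphotransferases 6 to 11 higher and 0 lower (1 lower without Normal hepatocytes replicate 2 or 3), sulphatases 3 to 7 higher and 0 lower, regulators 4 to 7 lower and 1 higher, PAPS genes 2 or 3 higher and 1 or 2 lower, and other cytosolic sulphotransferases 2 or 3 higher. None of the 5 members was called between aggregates and non-aggregates in any of 24 alternatives. For pathway genes in that comparison, where 0 were called, median scaling gave 2 higher, cyclic loess 1, only the groups compared 4, and array weights 4 higher and 1 lower. Leaving out arrays gave 0 to 1 higher, with 1 without HCC replicate 2, HCC replicate 3, Aggregate replicate 2 or Normal hepatocytes replicate 3, and 0 lower. The cause was not tested.

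The aggregate difference of Sult1c2 turned to 0.21 without Aggregate replicate 1 and 0.04 without Non-aggregate replicate 3, and that of Sult5a1 to 0.30 without Aggregate replicate 2 and 0.15 without Non-aggregate replicate 1, none of them called. With single arrays left out they ranged from -0.42 to 0.21 and from -0.59 to 0.30. The paired fit with the replicate block called 20 higher and 13 lower pathway genes in HCC. Of these, 19 and 13 were shared with the fit without the block, and in HCC and normal hepatocytes the numbers do not pair the arrays. Between aggregates and non-aggregates the block changed no call of the members or pathway genes. The member differences stayed as they were (-0.28 for Sult2a8 in aggregates), which complete pairs fix in advance. Over all genes the 81 higher calls in aggregates ran from 26 without background correction to 351 with array weights, which also called 28 lower. Single arrays moved that count from 16 without Non-aggregate replicate 1, 19 without Aggregate replicate 3, 32 without Non-aggregate replicate 2 or 3 and 39 without Aggregate replicate 1 to 122 without HCC replicate 1, 138 without Aggregate replicate 2, 141 without HCC replicate 2 and 153 without Normal hepatocytes replicate 3. Dim probes limit Sult5a1 in HCC, Sult1b1 throughout and most of the other cytosolic sulphotransferases, whose signals lay at background.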
